A study of Oryza sativa with 11 samples.

Results

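Alternative oxidases were followed in rice root tips with and without salt. The group was defined as the genes whose RefSeq symbol or synonym begins with AOX1 or OsAOX1, plus the probe set that the supplementary tables of the study give for locus LOC_Os04g51160. It held 2 genes of the 17905 with a probe set of their own, and each was read by 1 of the 57258 non-control probe sets of the Affymetrix Rice Genome Array. One was AOX1A (LOC4336874, synonyms AOX1, AOX1a and OsAOX1A). The probe set of locus LOC_Os04g51160 is assigned by the annotation to LOC4336875, a gene without a symbol. The study's tables describe this locus as a putative transposon protein whose best Arabidopsis match is the alternative oxidase AOX1A, so its identity as an alternative oxidase rests on that match. The RefSeq gene order places LOC4336875 directly beside AOX1A on chromosome 4, with 0 annotated genes between them.

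An alternative oxidase sits in the inner mitochondrial membrane and passes electrons from ubiquinol straight to oxygen. It bypasses complex III, cytochrome c and complex IV, and pumps no protons, so less ATP is made for the oxygen used. In plants the AOX1 genes are known for responding to blocked respiration and to stresses such as cold, and their enzymes for limiting the formation of reactive oxygen in mitochondria.

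The study compared 2 rice genotypes, the salt-tolerant FL478, a recombinant inbred line bred from IR29 and the tolerant Pokkali, and the salt-sensitive IR29. The 4 groups were FL478 under salt (3 arrays), FL478 control (3 arrays), IR29 under salt (3 arrays) and IR29 control (2 arrays). In the salt groups, NaCl and CaCl2 were raised over 3 d to about 60 mM NaCl (7.4 dS/m) and held for 5 d, while control tanks stayed at 1.1 dS/m. Both were harvested as 2 cm root tips at 30 d after germination, and the labels call the arrays biological replicates. Signals are linear intensities scaled to a 2% trimmed mean of 500.1 units on every array, with array medians between 48.8 and 61.3 units. On each array, 36.6 to 41.9% of all signals were under 32 units. Whole root tips were measured, so fewer cells of a type and less RNA per cell cannot be told apart. The summed signal of 4 root markers was 46060 to 47449 units in FL478 salt and 45038 to 50391 units in FL478 control. In IR29 it was 39919 to 50078 units under salt and 52174 to 52429 units in control, so every IR29 salt array was under both controls. That order was seen in 10.9% of all single probe sets. The 4 markers did not move together in IR29: 1 was higher and 3 lower under salt (−0.70 to 0.35, median −0.05), with none called by limma. Of 12 markers of dividing cells, 11 were higher under salt in FL478 (median difference 0.10) and 12 were lower in IR29 (median −0.20), with none called by limma and 1 and 0 at an unadjusted p under 0.05. The summed signal of 3 shoot markers lay between 203 and 730 units over all arrays. The part of these markers in the oxidase results was not tested. The log2 ratio of the 3' to the 5' GAPDH probe sets, a sign of RNA quality, was 0.77 ± 0.14 in FL478 salt and 0.58 ± 0.06 in FL478 control (SD, n = 3 each). It was 0.88 ± 0.16 in IR29 salt (SD, n = 3) and 0.65 ± 0.0086 in IR29 control (SD, n = 2). In FL478 the ratio was 0.651 to 0.921 under salt and 0.509 to 0.62 in control. In IR29 it was 0.711 to 1.03 under salt and 0.648 to 0.66 in control. The ratio thus went with salt in both genotypes, and a fit with it as a covariate cannot fully tell the 2 apart.

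AOX1A gave 357, 169 and 329 units on the FL478 salt arrays, against 925, 459 and 1530.2 units on the FL478 control arrays. All 3 salt arrays were under the lowest control array, and the means were 285 ± 102 units in FL478 salt and 971 ± 537 units in FL478 control (SD, n = 3 each), 3.41 times as high in control. In the FL478 comparison, every salt array under every control array was seen in 6.95% of all probe sets. In IR29, AOX1A gave 418, 356 and 769.7 units under salt, against 1087 and 568 units in control. Here the groups overlapped, since the third salt array lay above 1 control array, beside 10.9% of all probe sets with every IR29 salt array under both controls. The IR29 means were 515 ± 223 units under salt (SD, n = 3) and 828 ± 367 units in control (SD, n = 2).

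**Figure D1:**
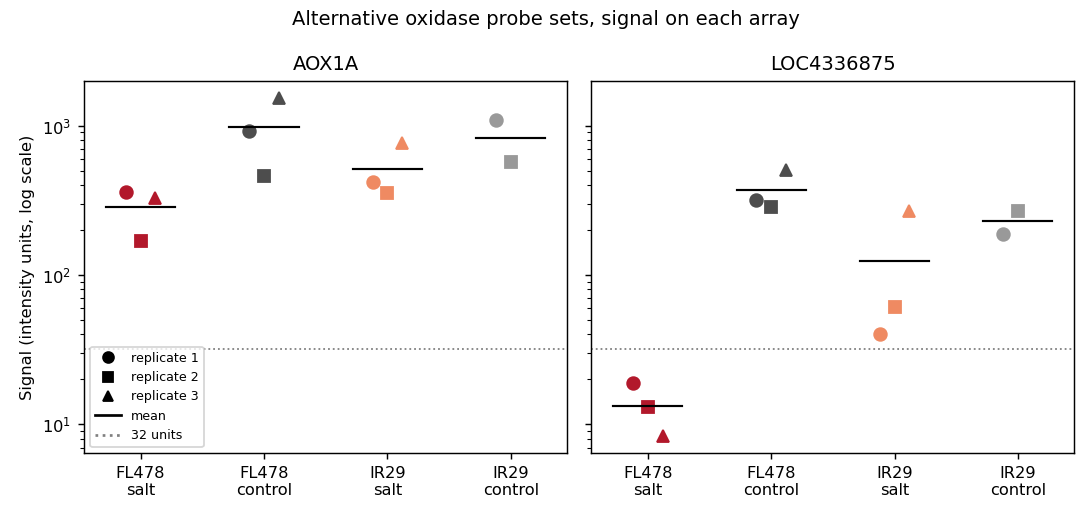
Signal of each alternative oxidase probe set on the 11 arrays (log scale, intensity units), by group. Points are arrays with the marker giving the replicate number, lines are group means, and the dotted line is at 32 units; all 3 FL478 salt arrays of LOC4336875 are under it, and the third IR29 salt array is far above the other two for that gene.

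Differences were tested with limma on log2(signal + 32) over all 57258 probe sets, with Benjamini-Hochberg adjustment and calls at an adjusted p under 0.10. The AOX1A difference of FL478 salt from FL478 control was −1.57 on this scale (95% interval −2.59 to −0.54, limma adjusted p = 0.316), which was not called in the fit without a replicate block, beside 0.121% of all probe sets called lower. In IR29 the salt difference was −0.66 (−1.81 to 0.49, adjusted p = 0.947), beside 0.00349% called lower. Leaving out 1 array moved the IR29 value between −1.11, without the second control array, and −0.21, without the first, and the GAPDH covariate, chosen after seeing the data, gave −0.37. With the replicate number as a block over all 11 arrays, the FL478 difference of −1.57 was called (limma adjusted p = 0.0896). That fit called 127 of all 57258 probe sets in FL478, in either direction. The deviations of the 3 same-numbered FL478 pairs from their group means correlated at 0.136 to 0.331. Differently numbered FL478 salt and control pairs gave −0.229 to 0.00979. Over all groups, 9 of 15 same-numbered pairs were over 0.1, but so were 7 of 30 differently numbered pairs, up to 0.234. The pairing behind the block is thus uncertain. The IR29 difference was not called with the block either (−0.94, adjusted p = 0.501). The mean of both salt effects was −1.11 (−1.88 to −0.34, adjusted p = 0.281), again not called, beside 0.355% called lower. An exact permutation of the array labels within each genotype, run on AOX1A by itself and two-sided, gave p = 0.035 for that mean, and 0.14 once adjusted over the 4 single values tested in this way. In FL478 the exact p was 0.1, the smallest that 3 arrays against 3 allow, and in IR29 it was 0.3.

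LOC4336875 gave 18.8, 13 and 8.3 units on the FL478 salt arrays, against 316, 283 and 507 units on the FL478 control arrays. On every FL478 salt array it was under 32 units, a range in which the offset shrinks changes. The means were 13.4 ± 5.26 units in FL478 salt and 369 ± 121 units in FL478 control (SD, n = 3 each). The control mean was 27.6 times the salt mean, or 11.5 times with signals under 32 set to 32. In IR29 the same probe set gave 40.2, 60.9 and 269 units under salt, against 188 and 270 units in control. The first and the second IR29 salt arrays lay under both control arrays, and the third lay between them. The IR29 means were 123 ± 126 units under salt (SD, n = 3) and 229 ± 58.0 units in control (SD, n = 2).

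The study lists LOC4336875 among the probe sets lowered by salt in FL478, from these arrays, so its FL478 difference, and every comparison that uses it, is given as a description and is not independent evidence. That difference was −3.11 on the log2(signal + 32) scale (95% interval −4.13 to −2.09, limma adjusted p = 0.0699), the seventh most negative of all probe sets. Its mean salt effect was −2.07 (−2.83 to −1.30, adjusted p = 0.0591). Both passed the threshold, but the FL478 call was kept in 2 of 11 fits that left out 1 array, those without the second or the third IR29 salt array (limma adjusted p = 0.0831 and 0.0209), and the mean effect's call only in the fit without the third (adjusted p = 0.0198). Leaving out any other array moved the adjusted p to between 0.106 and 0.223 in FL478, while the difference itself stayed between −3.26 and −2.87. With the GAPDH ratio as a covariate, chosen after seeing the data, the FL478 difference was −2.51 (adjusted p = 0.443) and the mean effect −1.42 (adjusted p = 0.650). In IR29, which the study's FL478 list did not use, the difference was −1.03 (−2.17 to 0.11, limma adjusted p = 0.845) and the exact permutation p was 0.3. It was −1.65 without the third IR29 salt array (adjusted p = 0.485), −0.62 without the first (adjusted p = 0.980) and −0.33 with the GAPDH covariate (adjusted p = 1.00).

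**Figure D2:**
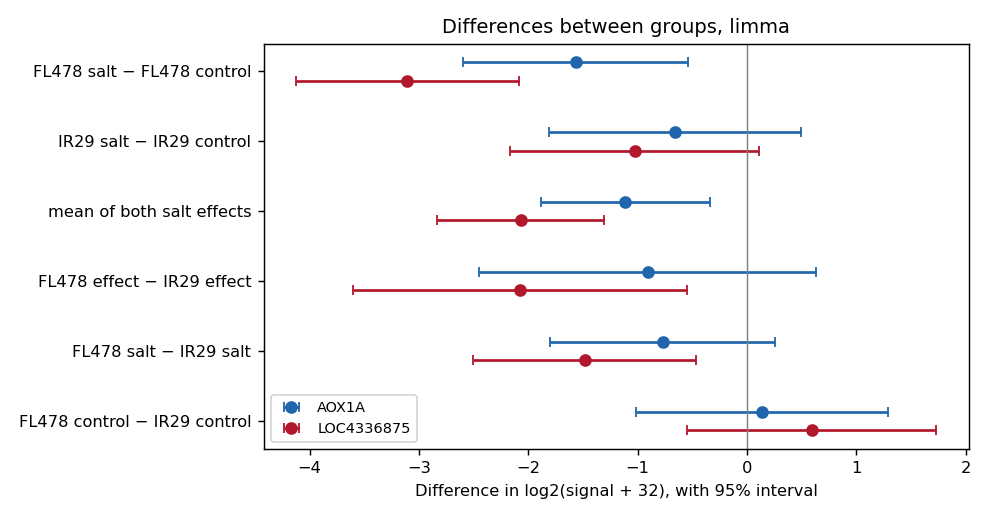
Differences between groups in log2(signal + 32) with 95% intervals from limma, for AOX1A and LOC4336875. The intervals of both genes lie below 0 in FL478 and for the mean effect, and both include 0 in IR29.

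The genotypes were also compared directly. The salt effect on AOX1A was −0.91 in FL478 minus IR29 (−2.45 to 0.63, limma adjusted p = 1.00), and that on LOC4336875 was −2.08 (−3.61 to −0.55, adjusted p = 1.00). Neither was called, and limma called 0% of all probe sets in that comparison, with 2596 at an unadjusted p under 0.05. Fold differences were thus larger in FL478 for both genes, but no difference between the genotypes' responses passed the test. Under salt, the difference of FL478 from IR29 for LOC4336875 was −1.48 (−2.50 to −0.47, adjusted p = 0.214), with all 3 FL478 arrays under all 3 IR29 arrays, beside 7.71% of probe sets with that order. For AOX1A it was −0.77 (−1.80 to 0.26, adjusted p = 0.601), and the arrays overlapped. Neither gene was called, beside 1.75% of all probe sets. In control, LOC4336875 was higher in FL478 than in IR29 on every array, by 0.60 (−0.54 to 1.73, adjusted p = 0.865), beside 11.3% of probe sets in that order. AOX1A differed by 0.14 in control (−1.01 to 1.29, adjusted p = 0.982), with overlapping arrays. Neither was called here either, beside 0.597% of all probe sets.

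Both probe sets had a larger residual SD over the 4 groups than most of similar level, for LOC4336875 mainly through the IR29 salt group. The residual SD of AOX1A was 0.65 on the log2 scale, against a median of 0.27 over 4312 probe sets of similar level, the 93.8th percentile. That of LOC4336875 was 0.65 against a median of 0.37 over 5978 probe sets, the 88.9th percentile. For AOX1A the second replicate was the lowest array in all 4 groups. Over the 11 arrays the 2 members had a Pearson r of 0.841 and a Spearman rho of 0.836, and after removing the group means r was 0.537. These correlations share the arrays, their scaling and the salt treatment, so they are a description only.

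**Figure D3:**
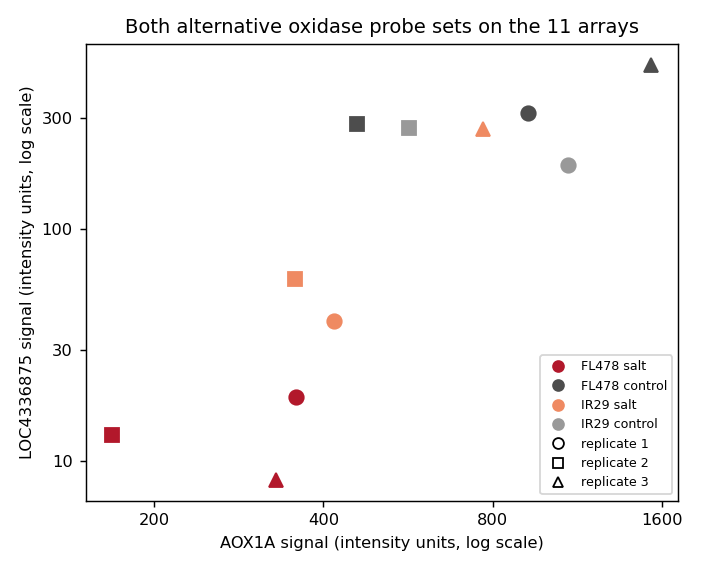
AOX1A against LOC4336875 signal (log scales, intensity units) on the 11 arrays, with colour for the group and marker for the replicate. The FL478 salt arrays are lowest for LOC4336875, and the third IR29 salt array sits with the controls.

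Likeness was ranked over 17887 annotated probe sets above the median level. The one most like AOX1A was LOC4349433 (synonyms CAO and Lls1), at r = 0.963 over 11 arrays. It gave 122, 67.4 and 193 units under FL478 salt, against 992, 366 and 1323 units in FL478 control. In IR29 it gave 194, 106 and 659 units under salt, against 944 and 353 units in control. The second array was the lowest of each group, and the third IR29 salt array the highest of the salt arrays. LOC4349433 was picked for its likeness to AOX1A on these arrays, so a shared order is a description only. LOC4339406 and LOC4338413 followed at 0.958 and 0.955. Most like LOC4336875 was LOC4343616, which the study's tables describe as a rotenone-insensitive NADH-ubiquinone oxidoreductase, an enzyme that feeds electrons to ubiquinone without pumping protons, at r = 0.965. Its probe set is of a type that can match similar transcripts, and the study listed it among those lowered in FL478.

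LOC4343616 gave 34.3, 36.0 and 42.5 units under FL478 salt, against 221, 166 and 257 units in FL478 control, a difference of −1.81 (SE 0.43). In IR29 it gave 59.9, 48.0 and 278 units under salt, against 162 and 182 units in control. The third IR29 salt array was above both controls, while the other salt arrays of both genotypes were below all controls. LOC4343616 was picked for its likeness to LOC4336875 on these arrays, so this pattern is a description only. The second most like LOC4336875 was HMA5 (LOC4336625), a copper transporter, at 0.939. HMA5 differed between salt and control by −1.35 in FL478 (SE 0.17) and by −0.74 in IR29 (SE 0.19), as a description only, since it was picked for its likeness to LOC4336875 on the same arrays. LOC4330422 came next at 0.938.

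The annotated genes on each side of the pair were compared next, as they lie on the same stretch of chromosome 4. In FL478 their salt differences were 0.51 (SE 0.23) for LOC4336872, 0.10 (SE 0.17) for LOC4336873, 0.11 (SE 0.15) for LOC4336876 and 0.18 (SE 0.29) for LOC4336877. In IR29 they were 0.40, −0.09, 0.21 and 0.24 in the same order. None of the 4 was called by limma in either genotype, and none had an unadjusted p under 0.05, so 4 of 4 in FL478 and 3 of 4 in IR29 were slightly higher under salt without passing the test.

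**Figure D4:**
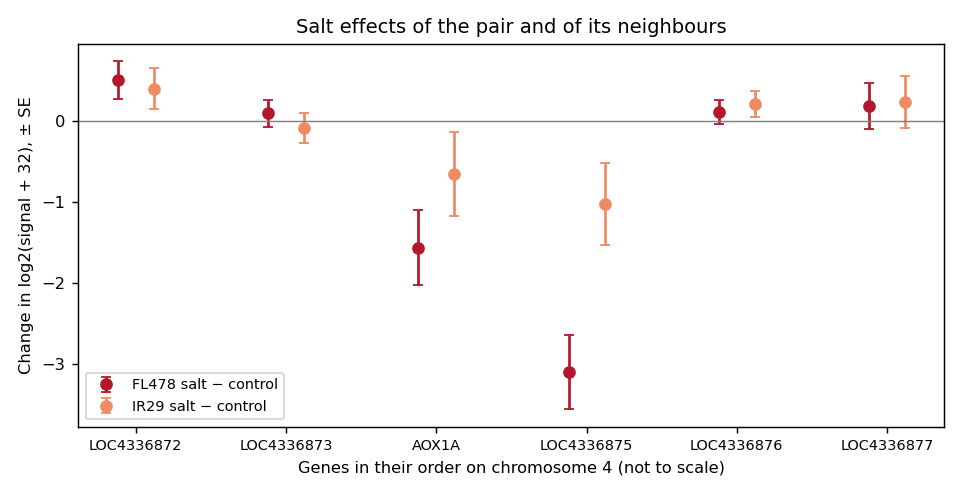
Salt differences in log2(signal + 32) with SE for AOX1A, LOC4336875 and the 2 annotated genes on each side, in chromosome order. The 4 neighbours lie near or above 0 and the pair below it.

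Other genes were drawn by symbols used for mitochondrial proteins. Of them, 12 had a probe set. These were 8 of 10 matched subunits of complex II, 1 of 4 of complex IV, and the dismutase sodA. The single genes matched to complex III and to cytochrome c were the others. None of the 9 matched complex I genes, 3 ATP synthase genes or 2 type II NAD(P)H dehydrogenase genes had a probe set, so the 12 are mostly complex II. LOC4343616 was not matched by symbol and is not among the 12. Of the 12, 11 were lower and 1 higher under salt in FL478 (median −0.21, against 0.000426 over all probe sets), and in IR29 11 were lower (median −0.30). None was called by limma in either genotype. At an unadjusted p under 0.05 there was 1 of 12 in FL478, beside 8.97% of all probe sets, and 5 of 12 in IR29, beside 6.18%. The study lists 9 probe sets with respiratory chain descriptions as lowered by salt in IR29, from these same arrays, and that of SDH1 is among them. The IR29 values are thus a description and not independent evidence. The 8 measured subunits of complex II, which passes electrons from succinate to ubiquinone, had differences of −0.28 to −0.01 in FL478 and −0.57 to −0.11 in IR29. The value nearest 0 was that of SDH2-1 in FL478 (−0.01, SE 0.15), which was at −0.56 in IR29 (SE 0.17). The difference between these salt effects, 0.56 (SE 0.23), was not called by limma. The probe set of SDH2-1 is also of the type that can match similar transcripts. RISP was matched to complex III by symbol only. Its synonym petC also names the plastid Rieske protein, so it may not be a mitochondrial gene. Its group means were 120 to 244 units. RISP had the most negative difference of the 12 in FL478, −0.85 (SE 0.20, limma adjusted p = 0.208). It was the 1 gene at an unadjusted limma p under 0.05 there, and 1 of the 5 in IR29. The manganese superoxide dismutase sodA, which removes superoxide in mitochondria, was at 0.10 in FL478 and 0.15 in IR29.

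**Figure D5:**
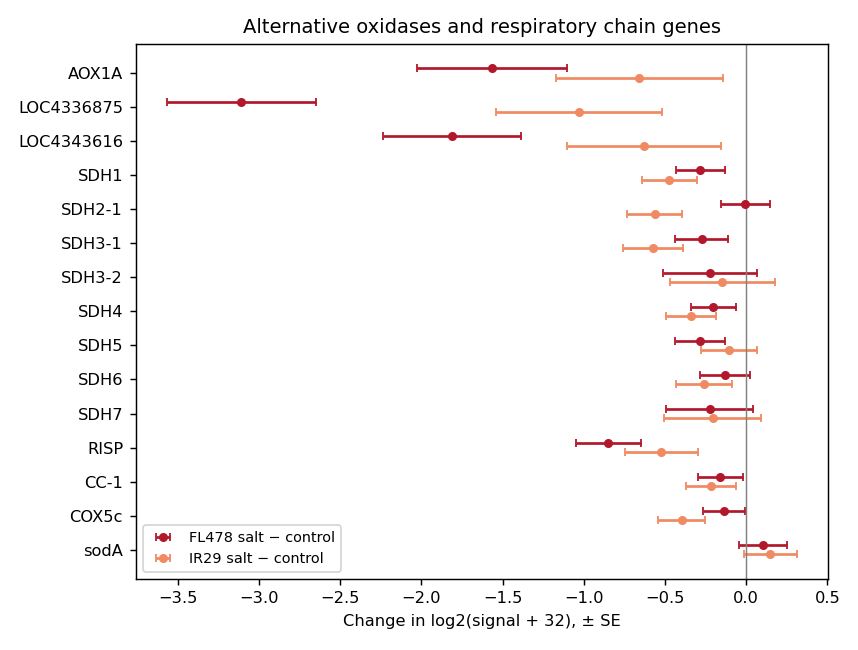
Salt differences in both genotypes, in log2(signal + 32) with SE, for the alternative oxidases, LOC4343616 and the 12 other genes drawn by mitochondrial symbols. RISP may be a plastid gene. The alternative oxidases and LOC4343616 lie farthest below 0. The study listed LOC4336875 and LOC4343616 as lowered in FL478 on these same arrays, so their place is a description only.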

How the data were processed

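The deposited values are linear signal intensities per probe set, which the authors produced with GCOS and scaled to a common trimmed mean. No version is given in the sources used here. The study's own lists came from another test, Significance Analysis of Microarrays, on values normalized by RMA. Its lists and the limma calls here are thus unlike measures of the same arrays. Control probe sets (123 of 57381) were left out. An offset of 32 was added, and log2 values were fitted in limma 3.58.1 (R 4.3.3) with 4 groups over all 11 arrays, 7 residual and 3 prior degrees of freedom, and Benjamini-Hochberg adjustment over 57258 probe sets, called under 0.10. The script was tested on simulated data with known changes in probe sets above the median level. It called 28.7% of changes of 1 log2 unit in FL478 and 16.3% in IR29. For changes of 2 log2 units it called 76.3% and 69.7%. A gene that was not called may thus still have changed. The members, gene lists and named genes (all members, the 3 annotated probe sets most correlated with each, and the genes of the respiratory lists) were chosen with earlier results of these data known. Alternatives were offsets of 16 and 64, a floor of 32, quantile normalization, probe sets above the median, a trended robust fit, each genotype alone, a replicate block, leaving out each array and, added later, a GAPDH covariate. The limma p-values of the main fit rest on the spread between arrays pooled over all 4 groups, moderated by the prior. For LOC4336875 the pooled SD was 0.645 on the log2 scale. Its group SDs were 0.167 in FL478 salt, 0.413 in FL478 control, 1.099 in IR29 salt and 0.323 in IR29 control. The IR29 arrays thus enter the FL478 p-value too. Salt was applied to tanks, and the study gives no number of rice tanks. Spread between arrays thus need not be spread between treated tanks. Replicate numbers in the labels were checked by the correlation of arrays' deviations from their group means. The 3 same-numbered FL478 salt and control pairs gave 0.331, 0.136 and 0.194, all over 0.1, while the IR29 pairs gave −0.143 and 0.0882. Differently numbered FL478 salt and control pairs gave −0.229 to 0.00979. Over all groups, 9 of 15 same-numbered pairs were over 0.1. Of 30 differently numbered pairs over all groups, 7 were also over 0.1, the highest at 0.234, so pairing in FL478 is possible but not settled. The main fit and its intervals used no pairing, and the block fit applied it to all 11 arrays, IR29 included.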

Additional observations from a re-analysis of the deposited data

How the results depend on the processing

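Of 232 alternative estimates of the members' differences, 229 kept their sign. Many of these could not differ from the main value, so the count is no measure of robustness. Leaving out an array of 1 genotype does not alter the salt difference of the other. The trended robust fit, the fit above the median and the fit of each genotype alone change only the errors and calls. The other 3 reversed, all for AOX1A between the control groups, where the difference of 0.14 was −0.14 with a replicate block and lay between −0.31 and 0.59 when 1 array was left out. The FL478 call was lost in 9 of 11 leave-one-out fits and the count of called members was 0 to 1. It was also 0 with an offset of 16 (LOC4336875 −3.68), with signals under 32 set to 32 (−3.48), with each genotype alone (−3.11) and with the GAPDH covariate (−2.51). Leaving out 1 array gave LOC4336875 −3.26 to −2.87 in FL478. For the mean effect the count was 0 to 1, LOC4336875 was −2.38 to −1.87, and with a floor of 32 it was −2.43 and with the covariate −1.42, the count being 0 in both. Over all 4 groups, the deviations of same-numbered arrays correlated between −0.143 and 0.34. Of the 11 arrays, 9 correlated best with their own number, a hint from the data and not from the design. With a replicate block 2 members were called in FL478 and in the mean effect, beside 127 and 498 of all probe sets in either direction. AOX1A was −1.57 (limma adjusted p = 0.0896) and −1.25 (adjusted p = 0.0538) in these fits. The block changed no other call of a member. Dim signals limit what can be read of LOC4336875 under salt in FL478. Over all probe sets, the 97 calls in FL478 became 14 with an offset of 16, 256 with a trended robust fit, 1 with each genotype alone, 0 with the covariate and 1 to 86 when an array was left out, and the 313 of the mean effect became 144 with that offset, 626 with the robust fit, 0 with the covariate and 9 to 232. Fitting each genotype alone gives no comparison between genotypes and no mean effect.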

Other observations

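Of the 8 complex II subunits with a probe set, 2 were called between the genotypes under salt (beside 1.75% of all probe sets) and 1 in control (beside 0.597%). SDH3-2 was higher in FL478 than in IR29 by 1.90 under salt (SE 0.29, limma adjusted p = 0.0131) and by 1.98 in control (SE 0.32, adjusted p = 0.0349). SDH7 was higher in FL478 by 1.26 under salt (SE 0.27, adjusted p = 0.0645), and in control its difference of 1.28 was not called (SE 0.30, adjusted p = 0.164). The other 6 with a probe set were called in neither condition.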
